A study of Mus musculus with 16 samples.

Results

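The 32 genes described here make up the core of the integrated stress response as it is usually drawn in mammalian cells: the kinase PERK, the transcription factors ATF4 and CHOP with their partners, the feedback genes they switch on, and the enzymes and transporters of amino acids that ATF4 is known to activate. They are defined by a list of gene symbols of the pathway, and all 32 were found among the 55416 mouse genes of the table. RNA was sequenced from primary hepatocytes, the parenchymal liver cells, kept in culture, in 4 groups of 4 samples. HKO cells carried Cre recombinase under the albumin promoter (genotype Alb-cre+) in a cross made to delete Smpd3, which encodes a neutral sphingomyelinase, in hepatocytes. They received palmitic acid, a saturated fatty acid that loads hepatocytes with fat and here stands in for steatohepatitis, at 0.4 mM for 24 h, or vehicle for 24 h. FLOX cells carried no such Cre (Alb-cre-) and were given the same fatty acid or vehicle for the same time. Presence of Cre and deletion of Smpd3 therefore differ together between the genotypes. The labels used here give no strain, age or sex, and do not say whether the 4 samples of a group came from separate mice or cultures, so that p-values measure only how far these samples spread, and that spread may be technical. Sample titles repeat the same numbers in both treatments of a genotype, without saying whether equal numbers share an animal. Samples were tested as unpaired.

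The integrated stress response begins when one of a small set of kinases phosphorylates the initiation factor eIF2α. PERK, encoded by Eif2ak3, does so when unfolded proteins gather in the endoplasmic reticulum, an organelle that saturated fatty acids are known to stress in hepatocytes. Phosphorylated eIF2α slows the start of translation in general while letting the ATF4 message be translated, and ATF4 then activates genes for amino acid uptake, amino acid synthesis, redox defence and the transcription factor CHOP (gene Ddit3). ATF4 and eIF2α are controlled largely at the level of protein, which RNA sequencing does not measure, and the targets are the usual readout at the level of RNA. CHOP and its target GADD34 (gene Ppp1r15a) belong to the later, feedback side of the response, in which eIF2α is dephosphorylated again.

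ATF4 binds DNA as a dimer with C/EBP proteins at a composite element whose core reads TGATGNAA, and its promoter matches are shown here because the genes that hold them went in both directions with palmitic acid. Promoters of 300 bases (250 before and 50 after the start) were given by RefSeq for GRCm38.p6 and matched 28 of the 32 genes, with none for Aldh1l2, Slc7a5, Cth and Eif4ebp1. The core stood on either strand in 8 of these 28 genes, against 1219 of 27025 genes (4.51%) in the whole promoter table. The 8 were Atf3, Trib3, Chac1, Asns, Slc7a11, Pycr1, Vldlr and Nupr1. A match describes the letters only, not a site in use. The stretches below run 5′ to 3′ on the strand of the gene, and the capitals mark the core, written TTNCATCA where it lies on the opposite strand.
Atf3 (chr1:191183410-191183469, minus strand): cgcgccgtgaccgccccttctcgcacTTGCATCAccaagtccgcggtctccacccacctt
Chac1 (chr2:119351023-119351082, plus strand): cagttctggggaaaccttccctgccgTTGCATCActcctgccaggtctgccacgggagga
Asns (chr6:7693214-7693243, minus strand): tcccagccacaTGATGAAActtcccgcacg
Slc7a11 (chr3:50443637-50443696, minus strand): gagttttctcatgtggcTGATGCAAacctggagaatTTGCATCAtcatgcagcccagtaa
Pycr1 (chr11:120643818-120643877, minus strand): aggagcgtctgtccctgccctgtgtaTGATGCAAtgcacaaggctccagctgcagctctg
Nupr1 (chr7:126625562-126625591, minus strand): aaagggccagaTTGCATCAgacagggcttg
Slc7a11 was the gene with 2 cores, at bases -66 to -59 and -47 to -40 from its start. Atf3, Pycr1 and Nupr1 held theirs at -110 to -103, -103 to -96 and -110 to -103, Chac1 at -193 to -186 and Asns at -23 to -16.

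Values are TPM, the abundance of a gene's transcripts relative to the total of its sample after correction for their length, so that levels of different genes can be compared. TPM keep no sequencing depth, so the depth of each library is unknown and the error of a value is the spread of its group. Smpd3 transcripts averaged 7.82 ± 1.11 TPM in HKO cells and 46.0 ± 2.36 TPM in FLOX cells with palmitic acid, and 5.29 ± 0.715 TPM in HKO and 31.98 ± 4.09 TPM in FLOX cells with vehicle (every mean here is given with its SD, n = 4), so that the labels of the genotypes held and some transcript remained in HKO cells. Hepatocyte markers were abundant in every sample, with a summed level of 35410 to 46040 TPM for 10 genes. Macrophage markers other than Cd68 stayed low, with Adgre1 at or under 0.08 TPM and Clec4f at or under 0.47 TPM. The highest of them was Csf1r, with 1.37 TPM in HKO vehicle replicate 3 and at most 0.23 TPM in FLOX samples. Endothelial, stellate, and lymphocyte and neutrophil markers summed to at most 5.47, 1.52 and 0.46 TPM, and cholangiocyte markers to 180 to 386 TPM, most of it Spp1. Fewer cells of a type and less RNA per cell cannot be told apart in such bulk samples. Across all genes tested, samples of a group correlated at 0.980 to 0.985 and samples of different groups at 0.965 to 0.984. The FLOX libraries numbered 1 stood apart from their groups in the balance of long against short transcripts. The median log2 level relative to all samples of the 25% of genes with the longest transcripts, minus that of the 25% with the shortest, was -0.22 for the palmitic acid library and 0.0586 to 0.141 for the other 3 of its group. It was 0.0851 for the vehicle library and -0.199 to -0.118 for the other 3 of its group.

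Of the 32 genes, 31 reached 1 TPM in at least 4 of the 16 samples and were tested. The exception was Stc2, a secreted glycoprotein, which stayed at or under 0.22 TPM in every sample. Ddit3 matched a pair of identifiers, of which ENSMUSG00000116429 was listed at 0 in all samples and ENSMUSG00000025408 was used. Levels covered a wide range over the 16 samples. Slc3a2, the heavy chain shared by several amino acid transporters, had the highest mean (284 TPM), followed by the translation repressor Eif4ebp1 (263 TPM) and Atf4 itself (233 TPM). The lowest tested means were those of Aldh1l2 (2.31 TPM), Slc7a1 (3.98 TPM) and Pycr1 (4.28 TPM). The genes did not move as a single block, as the map of all tested members by sample shows.

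**Figure D1:**
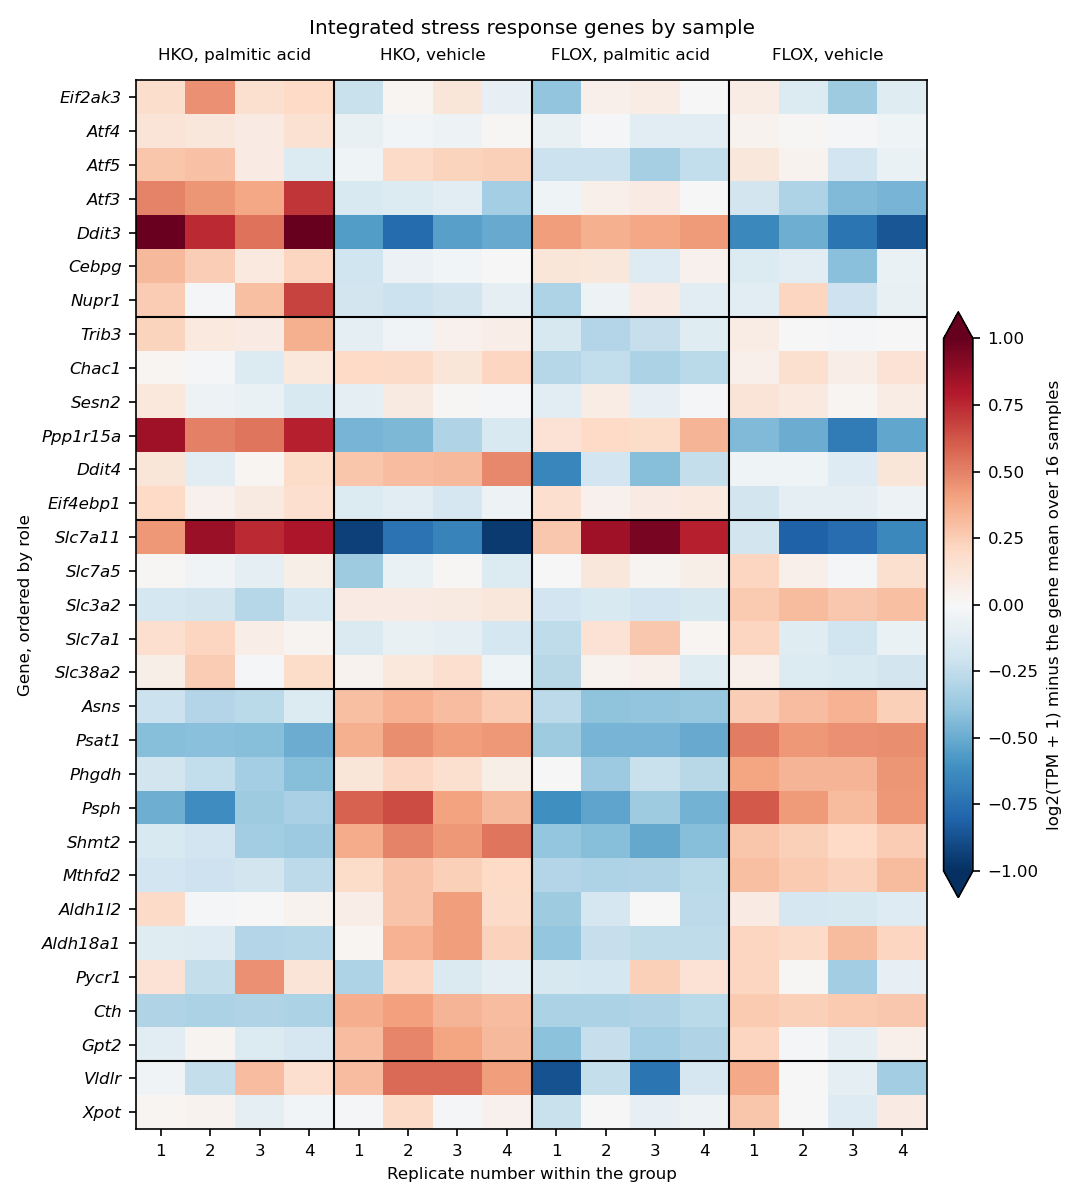
Each cell shows log2(TPM + 1) of a gene in a sample minus the mean of that gene over the 16 samples, with genes in rows by role and samples in columns by group (red above the mean, blue below, colour capped at 1 and -1). Ddit3, Ppp1r15a and Slc7a11 are red with palmitic acid in both genotypes, while Atf3 is red with it in HKO cells and near its mean in FLOX cells. The synthesis block from Asns to Gpt2, apart from Aldh1l2 and Pycr1, is mostly blue with palmitic acid, with Gpt2 near its mean in HKO cells.

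The first question was what palmitic acid did to these genes in each genotype. The stress transcription factors Atf3 and Ddit3 and the eIF2α phosphatase subunit Ppp1r15a went higher in both genotypes. Cebpg was called higher in both too, but that depended on the scaling, as given below. Lower in both were 9 of 11 genes for the synthesis of serine, asparagine and other amino acids and one-carbon units, which ATF4 is known to activate. In HKO cells 9 of 31 tested genes were higher and 12 lower with palmitic acid, where 29.4% and 13.1% of all 11858 genes tested were called higher and lower. In FLOX cells 6 were higher and 14 lower, against 23% and 11.5% of all genes. The median log2 fold change of the 31 genes was -0.041 in HKO and -0.15 in FLOX cells, beside 0.11 and 0.096 over all genes. Calls are limma adjusted p-values below 0.05 over all genes tested, on log2(TPM + 1), a scale on which the change of low genes is understated. In both genotypes 6 genes were higher (Atf3, Ddit3, Cebpg, Slc7a11, Ppp1r15a and Eif4ebp1) and 12 were lower. Trib3 was called in opposite directions, Atf4 and Nupr1 were called in HKO cells alone, Vldlr in FLOX cells alone, and 9 genes in neither. The share of lower calls among the members was above the background and that of higher calls was near or below it.

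Because palmitic acid moved the median of all genes by 0.11 in HKO and 0.096 in FLOX cells, small upward changes depend on the scaling. With samples scaled by the median ratio of TPM, the median over all genes was 0.00587 in HKO and 0.0085 in FLOX cells, and 47% and 45.5% of all calls were higher, against 69.3% and 66.7% without it. The higher calls of Atf3, Ddit3, Ppp1r15a and Slc7a11 held in both genotypes under that scaling, as did that of Nupr1 in HKO cells and every lower call in either genotype. The higher calls of Cebpg and Eif4ebp1 were lost in both genotypes (adjusted p = 0.0995 and 0.169 in HKO, 0.261 for both in FLOX cells), and those of Atf4 and Trib3 in HKO cells (0.58 and 0.445). Other genes were called lower with that scaling and not without it. In HKO cells these were Sesn2, Aldh1l2, Vldlr and Xpot, with log2 fold changes of -0.15, -0.28, -0.52 and -0.18 (0.0285, 0.0243, 0.0214 and 0.0166). In FLOX cells they were Atf4, Atf5, Sesn2 and Xpot, with -0.17, -0.32, -0.21 and -0.24 (0.00486, 0.00619, 0.00626 and 0.00313). Between genotypes 55.4% of calls under palmitic acid and 57.3% under vehicle were higher with it, against 43.5% and 35.2% without it.

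**Figure D2:**
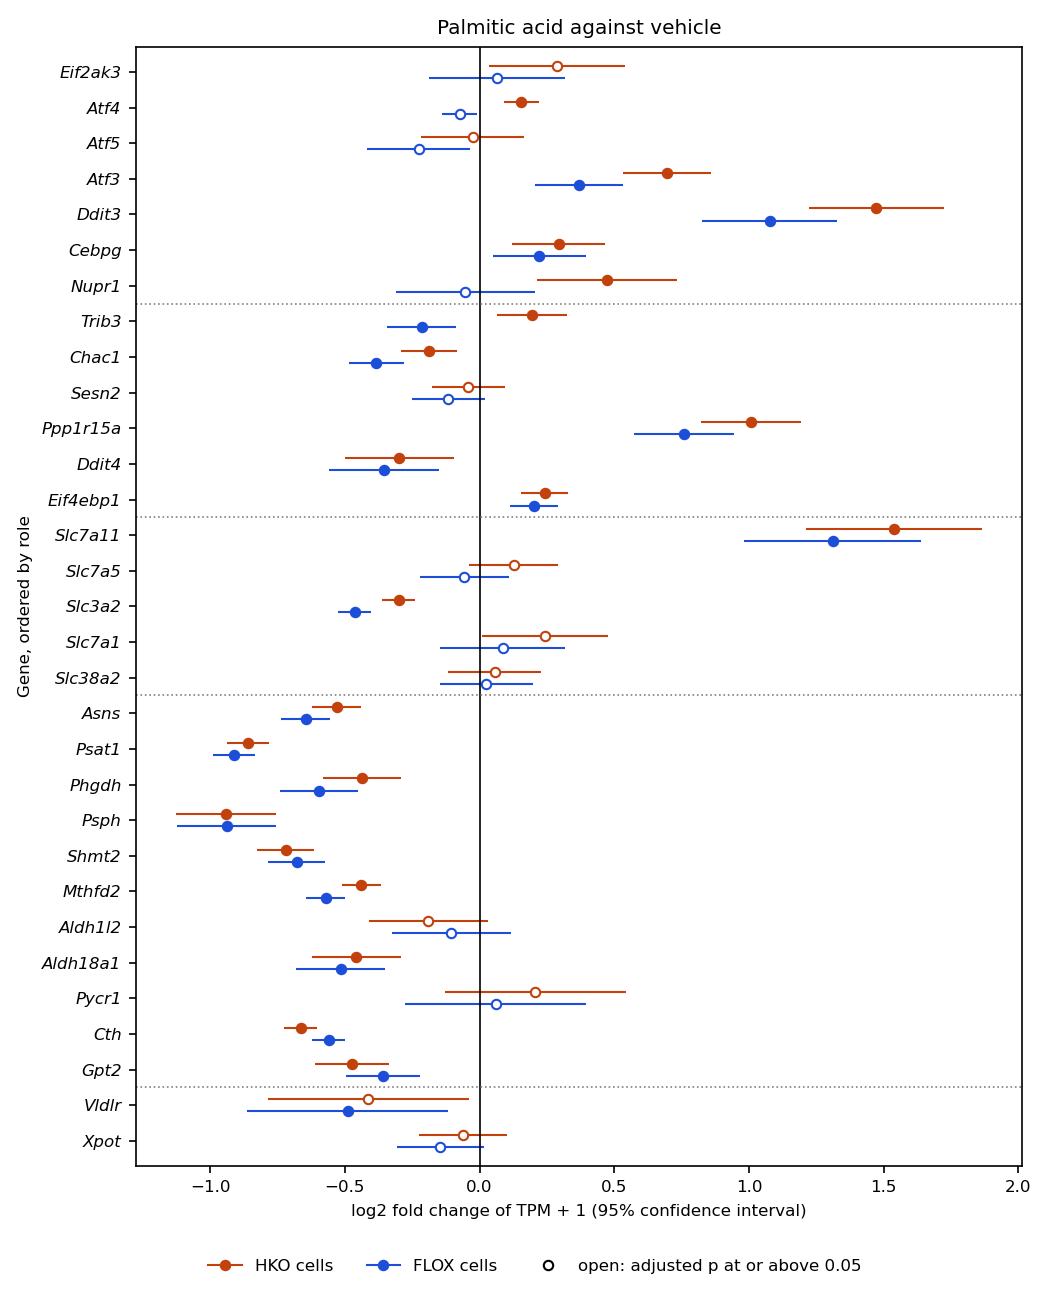
Points are log2 fold changes of TPM + 1 with palmitic acid over vehicle for the 31 tested genes, HKO cells above FLOX cells in each row, with 95% confidence intervals, filled where the limma adjusted p is below 0.05. Ddit3, Ppp1r15a and Slc7a11 lie farthest to the right, with 1.01 to 1.54 in HKO and 0.76 to 1.31 in FLOX cells, and the serine enzymes Psat1 and Psph lie farthest to the left.

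Among the sensor and the transcription factors, 5 of 7 were higher in HKO and 3 of 7 in FLOX cells, and none was lower. Of all genes, 29.4% were higher in HKO and 23% in FLOX cells. With median-ratio scaling Atf3, Ddit3 and Nupr1 stayed higher in HKO cells. In FLOX cells Atf3 and Ddit3 did, while Atf4 and Atf5 were called lower there. Ddit3, which encodes CHOP, a C/EBP family factor tied to prolonged endoplasmic reticulum stress, had 40.8, 34.4, 29.7 and 48.9 TPM in HKO cells with palmitic acid, against 13.3, 11.4, 13.5 and 13.9 TPM with vehicle. In FLOX cells it had 27.2, 26.0, 26.6 and 27.4 TPM with palmitic acid and 12.5, 14.04, 11.8 and 10.6 TPM with vehicle. Treated and vehicle samples did not overlap in either genotype, and HKO palmitic acid replicates 4 and 1 were the highest of all 16. The ratio of means was 2.96 in HKO and 2.19 in FLOX cells, with log2 fold changes of 1.47 ± 0.12 in HKO and 1.08 ± 0.12 in FLOX cells (± SE, limma adjusted p = 1.01e-07 and 4.07e-06). Atf3 (ENSMUSG00000026628), a stress-induced factor of the same leucine zipper class whose promoter holds the core shown above, had 62.1, 59.8, 57.6 and 72.5 TPM in HKO cells with palmitic acid, against 39.2, 39.8, 40.7 and 34.3 TPM with vehicle. FLOX cells had 42.4, 45.2, 46.4 and 43.6 TPM with palmitic acid and 38.4, 35.2, 32.03 and 31.4 TPM with vehicle. Again no treated sample overlapped its vehicle group, and the highest was HKO palmitic acid replicate 4. Atf3 rose by 0.69 ± 0.077 on the log2 scale in HKO and by 0.37 ± 0.077 in FLOX cells (limma adjusted p = 3.22e-06 and 0.00167).

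Atf4 (ENSMUSG00000042406) changed little at the level of RNA. It had 254, 252, 246 and 258 TPM in HKO cells with palmitic acid and 221, 228, 224 and 234 TPM with vehicle. FLOX cells had 221, 230.3, 215 and 215 TPM with palmitic acid and 238, 234, 231 and 226 TPM with vehicle. All 4 treated HKO samples lay above the vehicle ones, whereas treated and vehicle FLOX samples overlapped. Its log2 fold change was 0.15 ± 0.031 in HKO cells (limma adjusted p = 0.000828, 1.11-fold), a call lost with median-ratio scaling as given above, and -0.074 ± 0.031 in FLOX cells (0.0747). Nupr1, a small chromatin-binding stress protein, had 27.0, 22.3, 27.9 and 36.5 TPM in HKO cells with palmitic acid, against 19.7, 19.2, 19.7 and 20.9 TPM with vehicle. In FLOX cells it had 18.0, 21.7, 23.8 and 20.8 TPM with palmitic acid and 20.8, 26.2, 19.3 and 21.3 TPM with vehicle, and these groups overlapped. Nupr1 rose by 0.47 ± 0.12 in HKO cells (limma adjusted p = 0.00562) and stood at -0.052 ± 0.12 in FLOX cells (0.773).

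Cebpg, a C/EBP family partner of ATF4, averaged 23.6 ± 1.57 TPM in HKO cells with palmitic acid and 19.1 ± 1.21 TPM with vehicle, a rise of 0.29 ± 0.081 (limma adjusted p = 0.00864). In FLOX cells it averaged 20.7 ± 1.72 TPM with palmitic acid and 17.6 ± 1.94 TPM with vehicle and the groups overlapped. The FLOX call (0.22 ± 0.081, 0.0457) was lost when any of 11 libraries was left out (adjusted p = 0.0515 to 0.156), namely HKO palmitic acid replicate 2 or 4, HKO vehicle replicate 2, 3 or 4, FLOX palmitic acid replicate 1, 2 or 4 or FLOX vehicle replicate 1, 2 or 3. Eif2ak3, the PERK kinase, stood at 0.29 ± 0.12 in HKO and 0.066 ± 0.12 in FLOX cells (limma adjusted p = 0.0616 and 0.699). Its 4 treated HKO samples (7.91 to 9.95 TPM) lay above the vehicle ones (5.83 to 7.68 TPM) without passing the threshold. It passed in HKO cells without FLOX palmitic acid replicate 1 (0.0271), without HKO vehicle replicate 3 (0.0454) and without both FLOX libraries numbered 1 (0.0171), and in the last case its FLOX change was 0.25 (0.0698). Atf5, a relative of ATF4 also controlled through translation, stood at -0.026 ± 0.090 in HKO and -0.23 ± 0.090 in FLOX cells (0.845 and 0.0647). Exons of Eif2ak3 overlap those of a gene on the opposite strand by 485 bases in GENCODE vM21. It is not given whether the counting used the strand. The values of Eif2ak3 are therefore less certain than those of members without such an overlap.

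The feedback and growth brake genes divided. Ppp1r15a (ENSMUSG00000040435) encodes GADD34, which guides a phosphatase to eIF2α and so ends the response. It had 86.3, 68.0, 69.4 and 82.1 TPM in HKO cells with palmitic acid, against 34.1, 34.6, 38.5 and 42.7 TPM with vehicle, and 52.7, 54.8, 54.2 and 60.6 TPM in FLOX cells with palmitic acid, against 34.7, 33.5, 28.9 and 32.8 TPM with vehicle. Every treated sample was above every vehicle sample of its genotype. The gene rose 2.04-fold in HKO and 1.71-fold in FLOX cells, with log2 fold changes of 1.01 ± 0.087 in HKO and 0.76 ± 0.087 in FLOX cells (limma adjusted p = 2.38e-07 and 7.11e-06). Eif4ebp1, which binds the cap-binding factor eIF4E and restrains translation, was higher by 0.24 ± 0.042 in HKO and 0.20 ± 0.042 in FLOX cells (limma adjusted p = 0.000241 and 0.0015), with the dependence on scaling given above.

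Trib3 (ENSMUSG00000032715), a pseudokinase induced by ATF4 and CHOP that binds the kinase Akt, had 49.0, 44.6, 44.3 and 53.7 TPM in HKO cells with palmitic acid, against 39.1, 40.8, 43.1 and 43.6 TPM with vehicle. In FLOX cells it had 37.2, 33.8, 35.4 and 38.3 TPM with palmitic acid, against 44.0, 41.5, 41.3 and 41.9 TPM with vehicle. The treated samples were all above vehicle in HKO cells and all below it in FLOX cells. Trib3 rose by 0.19 ± 0.060 in HKO (limma adjusted p = 0.0169) and fell by 0.22 ± 0.060 in FLOX cells (0.0121). The HKO call was lost without HKO palmitic acid replicate 4 (0.0572) or replicate 1 of HKO vehicle (0.0574), and the FLOX call held under all 26 alternatives. Chac1 (ENSMUSG00000027313), an enzyme that degrades glutathione, had 37.9, 37.2, 33.9 and 40.3 TPM in HKO cells with palmitic acid, against 43.0, 42.9, 40.9 and 43.5 TPM with vehicle. FLOX cells had 30.5, 31.4, 29.8 and 30.9 TPM with palmitic acid and 38.8, 41.8, 39.2 and 41.4 TPM with vehicle. No treated sample reached its vehicle group, and Chac1 was lower in both genotypes, with log2 fold changes of -0.19 ± 0.049 in HKO and -0.38 ± 0.049 in FLOX cells (limma adjusted p = 0.00584 and 1.86e-05).

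Ddit4, which encodes REDD1, an inhibitor of the growth kinase mTORC1, had 19.1, 16.1, 17.8 and 20.0 TPM in HKO cells with palmitic acid and 21.5, 21.9, 22.2 and 24.8 TPM with vehicle. FLOX cells had 10.8, 15.2, 12.8 and 14.7 TPM with palmitic acid and 16.9, 16.99, 15.9 and 19.2 TPM with vehicle. Treated samples lay below vehicle in both genotypes, with log2 fold changes of -0.30 ± 0.10 in HKO and -0.35 ± 0.10 in FLOX cells (limma adjusted p = 0.0203 and 0.0094). Its HKO call was lost without HKO palmitic acid replicate 2 (0.07) or replicate 4 of HKO vehicle (0.0649). Sesn2, a leucine-binding restrainer of mTORC1, stood at -0.041 ± 0.064 in HKO and -0.12 ± 0.064 in FLOX cells (0.64 and 0.175 by limma).

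Of the 5 amino acid transport genes, 1 was higher, 1 lower and 3 passed in neither direction, and the same held in each genotype. Beside them, 29.4% of all genes were higher and 13.1% lower in HKO cells, and 23% and 11.5% in FLOX cells. Slc7a11 (ENSMUSG00000027737), the cystine importer xCT that feeds glutathione synthesis and whose promoter holds both cores printed above, had 22.04, 30.01, 27.6 and 28.9 TPM in HKO cells with palmitic acid, against 7.92, 9.22, 9.73 and 7.78 TPM with vehicle. FLOX cells had 19.6, 29.7, 31.96 and 28.2 TPM with palmitic acid and 14.01, 8.76, 9.06 and 9.93 TPM with vehicle. Groups did not overlap, although FLOX palmitic acid replicate 1 was the lowest treated sample and FLOX vehicle replicate 1 the highest vehicle sample. Slc7a11 rose 3.13-fold in HKO and 2.62-fold in FLOX cells, with log2 fold changes of 1.54 ± 0.15 in HKO and 1.31 ± 0.15 in FLOX cells (limma adjusted p = 1.13e-06 and 8.5e-06), the largest of the 31 genes in each genotype. Its longest transcript has 9223 bases and is among the long transcripts, in which both FLOX libraries numbered 1 stood apart. Without both of them the FLOX change was 1.59 (limma adjusted p = 1.42e-07).

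Slc3a2 (ENSMUSG00000010095), the heavy chain with which xCT and LAT1 pair, went the other way. It had 248, 247, 229.9 and 248 TPM in HKO cells with palmitic acid and 298, 298, 299 and 304 TPM with vehicle, and 246, 252, 246 and 251 TPM in FLOX cells with palmitic acid and 338, 351, 339 and 346 TPM with vehicle. All treated samples were below all vehicle samples of either genotype. Slc3a2 changed by -0.30 ± 0.029 in HKO and -0.46 ± 0.029 in FLOX cells (limma adjusted p = 6.84e-07 and 6.84e-09). Slc7a5 (LAT1, for large neutral amino acids), Slc7a1 (CAT1, for arginine and lysine) and Slc38a2 (SNAT2, for small neutral amino acids) stood at 0.13 ± 0.078, 0.24 ± 0.11 and 0.056 ± 0.081 in HKO cells (limma adjusted p = 0.207, 0.0863 and 0.616). In FLOX cells their log2 fold changes were -0.057 ± 0.078, 0.086 ± 0.11 and 0.026 ± 0.081 (0.602, 0.572 and 0.834). Slc7a1, whose transcript is also among the long ones, passed as higher when both FLOX libraries numbered 1 were left out, with 0.24 in HKO and 0.27 in FLOX cells (limma adjusted p = 0.0149 and 0.02). Without FLOX palmitic acid replicate 1 alone it passed in HKO cells (0.042).

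Most synthesis genes moved together: 9 of 11 were lower with palmitic acid in HKO cells, the same 9 were lower in FLOX cells, and none was higher. Of all genes, 13.1% were lower in HKO and 11.5% in FLOX cells. The median log2 fold change of the 11 was -0.47 in HKO and -0.57 in FLOX cells. Serine is made from a glycolytic intermediate in a chain of steps catalysed by Phgdh, Psat1 and Psph, and all of these fell. Psat1 (ENSMUSG00000024640) had 78.2, 78.7, 78.1 and 74.4 TPM in HKO cells with palmitic acid, against 135, 146, 141 and 143 TPM with vehicle. In FLOX cells it had 82.1, 76.0, 76.2 and 74.1 TPM with palmitic acid and 150.3, 142, 145 and 146 TPM with vehicle. The treated samples of both genotypes lay within one narrow range, far below any vehicle sample. Its log2 fold changes were -0.86 ± 0.037 in HKO and -0.91 ± 0.037 in FLOX cells (limma adjusted p = 8.85e-11 and 8.4e-11). Psph had 32.8, 29.8, 36.0 and 36.9 TPM in HKO cells with palmitic acid, against 70.5, 73.6, 61.6 and 58.3 TPM with vehicle. FLOX cells had 30.1, 31.9, 36.1 and 33.2 TPM with palmitic acid and 71.7, 62.8, 58.2 and 62.9 TPM with vehicle. No treated sample came near its vehicle group, and Psph changed by -0.94 ± 0.087 in HKO and -0.94 ± 0.087 in FLOX cells (limma adjusted p = 4.79e-07 and 6.81e-07). Exons of Psph overlap those of Cct6a on the opposite strand by 452 bases, which makes its level less certain.

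Phgdh, the first step of the chain, had 102, 97.0, 91.2 and 85.6 TPM in HKO cells with palmitic acid, against 126, 134, 129 and 120.4 TPM with vehicle. FLOX cells had 116, 89.7, 98.8 and 95.02 TPM with palmitic acid and 152, 146, 146 and 158 TPM with vehicle. Treated and vehicle samples were apart in both, with log2 fold changes of -0.44 ± 0.068 in HKO and -0.60 ± 0.068 in FLOX cells (limma adjusted p = 9.87e-05 and 6.49e-06). Asns (ENSMUSG00000029752), asparagine synthetase, is the classical target of the amino acid branch, and its promoter holds the core a few bases before the start. It had 71.9, 68.2, 69.2 and 75.9 TPM in HKO cells with palmitic acid and 103, 107, 104 and 99.8 TPM with vehicle. In FLOX cells it had 69.5, 63.2, 63.4 and 64.0 TPM with palmitic acid and 99.6, 104, 107 and 99.0 TPM with vehicle. Asns was lower in all treated samples, by a log2 fold change of -0.53 ± 0.043 in HKO and -0.65 ± 0.043 in FLOX cells (limma adjusted p = 1.21e-07 and 1.66e-08), a ratio of means of 0.690 and 0.636.

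Serine passes its carbon to folate in mitochondria through Shmt2 and then Mthfd2. Shmt2 (ENSMUSG00000025403) had 129.8, 126, 113 and 112 TPM in HKO cells with palmitic acid and 187, 203, 195 and 209 TPM with vehicle. FLOX cells had 110.1, 107, 100.92 and 107 TPM with palmitic acid and 175, 170.3, 166 and 172 TPM with vehicle. These groups were wide apart, and Shmt2 changed by -0.72 ± 0.050 in HKO and -0.68 ± 0.050 in FLOX cells (limma adjusted p = 2.09e-08 and 5.05e-08). Mthfd2 ranged over 56.1 to 59.3 TPM in treated and 76.8 to 82.5 TPM in vehicle HKO cells, and over 54.2 to 55.7 TPM in treated and 79.2 to 84.2 TPM in vehicle FLOX cells. Its changes were -0.44 ± 0.034 in HKO and -0.57 ± 0.034 in FLOX cells (limma adjusted p = 6.73e-08 and 4.38e-09). Aldh1l2, a mitochondrial enzyme that oxidizes formyl folate, averaged 2.40 ± 0.229 TPM in treated and 2.89 ± 0.401 TPM in vehicle HKO cells, and 1.87 ± 0.303 TPM in treated and 2.08 ± 0.266 TPM in vehicle FLOX cells. It stood at -0.19 ± 0.10 in HKO and -0.11 ± 0.10 in FLOX cells (limma adjusted p = 0.155 and 0.457), and 1056 bases of its exons overlap a gene on the opposite strand.

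Cth, cystathionine gamma-lyase, which makes cysteine from cystathionine, had 79.2, 78.5, 79.4 and 78.6 TPM in HKO cells with palmitic acid, against 126, 131, 124 and 122 TPM with vehicle. FLOX cells had 78.5, 78.4, 79.5 and 81.0 TPM with palmitic acid and 118, 116, 118 and 118 TPM with vehicle. Treated and vehicle samples were far apart in both genotypes, and the changes were -0.66 ± 0.029 in HKO and -0.56 ± 0.029 in FLOX cells (limma adjusted p = 8.85e-11 and 7.8e-10). Gpt2, mitochondrial alanine aminotransferase, had 129, 141, 126 and 124 TPM in HKO cells with palmitic acid, against 172, 195, 182 and 174 TPM with vehicle. FLOX cells had 104, 118, 109 and 113 TPM with palmitic acid and 161, 137, 129.8 and 144 TPM with vehicle. It was lower in every treated sample, with log2 fold changes of -0.47 ± 0.064 in HKO and -0.36 ± 0.064 in FLOX cells (limma adjusted p = 2.59e-05 and 0.000496). Aldh18a1, which opens proline synthesis, changed by -0.46 ± 0.077 in HKO and -0.52 ± 0.077 in FLOX cells (limma adjusted p = 0.000197 and 9.24e-05), while Pycr1, which closes it and whose promoter holds the core, stood at 0.21 ± 0.16 in HKO and 0.060 ± 0.16 in FLOX cells (0.314 and 0.802).

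Hepatocyte markers moved in the same direction as the synthesis genes. Their summed level was 36150 to 36960 TPM in HKO cells with palmitic acid, against 44340 to 46040 TPM with vehicle, and 35410 to 36950 TPM in FLOX cells with palmitic acid, against 44060 to 45360 TPM with vehicle. Of the 10 markers, 9 were lower in each genotype, with a median log2 fold change of -0.30 in HKO and -0.33 in FLOX cells, and none was higher. Of all genes, 13.1% were lower in HKO and 11.5% in FLOX cells. Markers of other cells moved as well. Cd68 was higher with palmitic acid by 0.50 ± 0.084 in HKO and 0.33 ± 0.084 in FLOX cells (limma adjusted p = 0.000195 and 0.00714). Of the 4 tested cholangiocyte markers Sox9 and Spp1 were higher, by 0.62 ± 0.078 and 0.25 ± 0.068 in HKO and 0.41 ± 0.078 and 0.19 ± 0.068 in FLOX cells. Krt7 and Krt19 were lower, at -0.99 ± 0.10 and -1.02 ± 0.12 in HKO and -1.38 ± 0.10 and -0.67 ± 0.12 in FLOX cells. Of 3 tested endothelial markers Stab2 was lower in HKO cells (-0.41 ± 0.12, 0.0142). The part of these markers in the changes of the stress and synthesis genes was not tested. Among the remaining targets, Vldlr, a receptor for triglyceride-rich lipoproteins, stood at -0.41 ± 0.17 in HKO cells (0.0691) and -0.49 ± 0.17 in FLOX cells (0.0407, both by limma). Its FLOX groups overlapped (2.16 to 4.14 TPM with palmitic acid and 3.55 to 6.52 TPM with vehicle), and that call was lost without FLOX vehicle replicate 1, 2 or 3 or FLOX palmitic acid replicate 1 or 3 (adjusted p = 0.0605 to 0.117). Xpot, the nuclear exporter of tRNA, stood at -0.061 ± 0.076 in HKO and -0.15 ± 0.076 in FLOX cells (0.549 and 0.152).

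Genes whose promoters hold the core were called in both directions. Of the 8 genes that hold it, Atf3 and Slc7a11 were higher in both genotypes, Chac1 and Asns were lower in both, Trib3 was called in opposite directions, Nupr1 was higher in HKO cells, Vldlr was lower in FLOX cells and Pycr1 passed in neither. The Trib3 call in HKO cells and the Vldlr call in FLOX cells were lost under alternatives given above. Of all genes, 29.4% were higher and 13.1% lower in HKO cells, and 23% and 11.5% in FLOX cells.

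**Figure D3:**
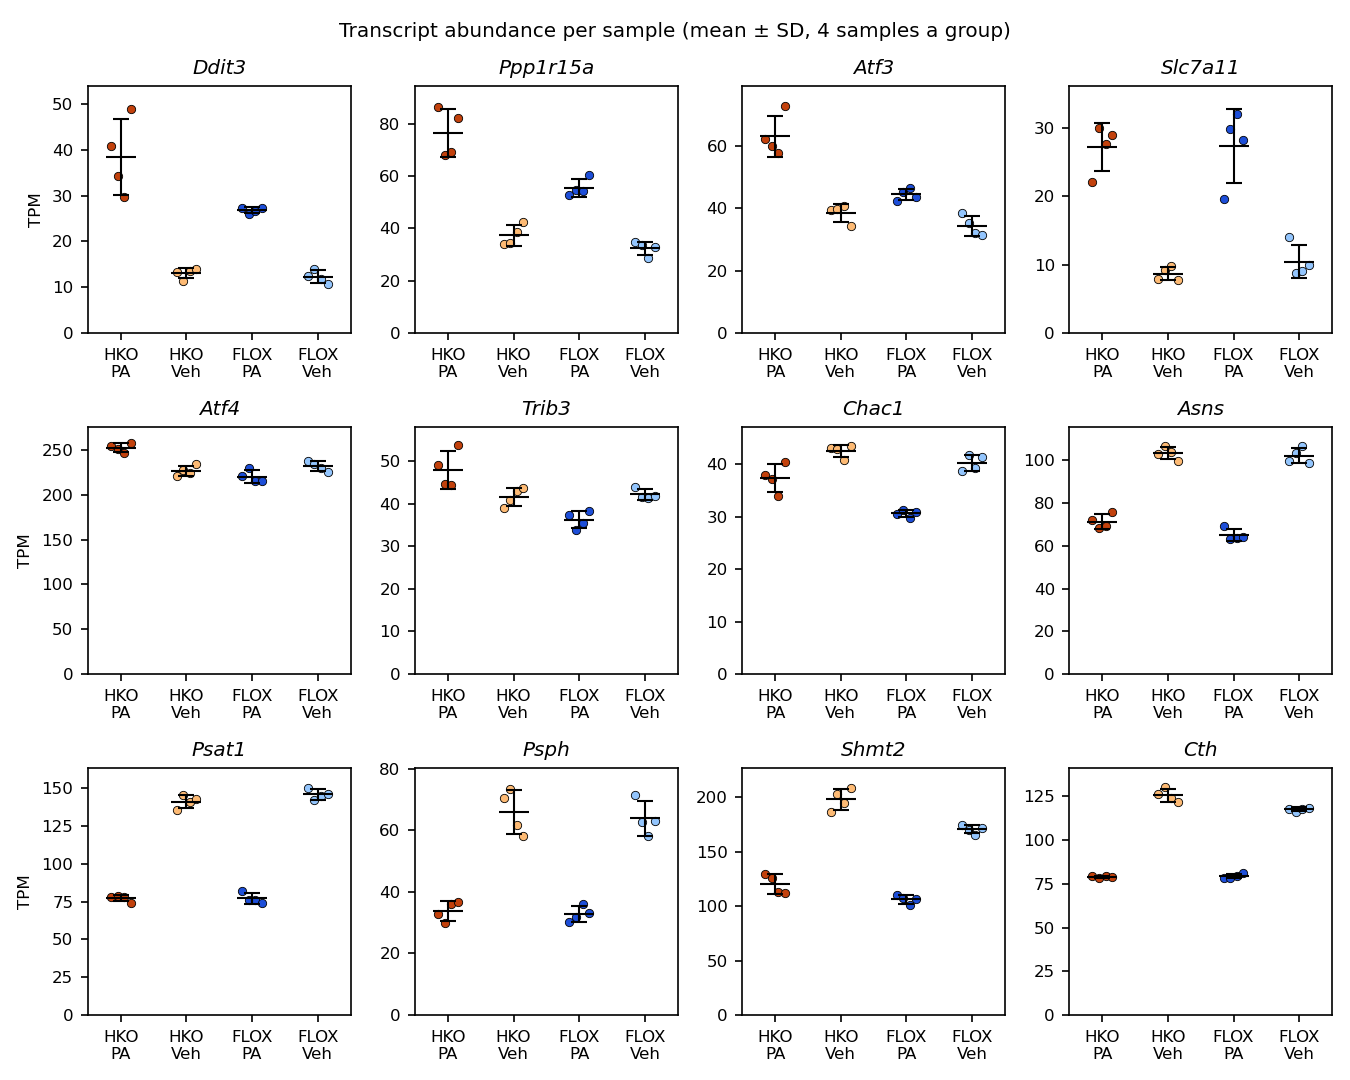
TPM of 12 members in each of the 16 samples, with points for samples, a long bar for the mean and caps for the SD (n = 4), and HKO left of FLOX cells, each with palmitic acid (PA) left of vehicle (Veh); all axes start at 0. Ddit3, Ppp1r15a, Atf3 and Trib3 are highest in HKO cells with palmitic acid, while Asns, Psat1, Psph, Shmt2 and Cth are lower with palmitic acid than with vehicle in both genotypes.

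The second question was how HKO cells differed from FLOX cells under palmitic acid. Of the 31 genes, 10 were higher in HKO cells and none was lower, where 4.24% and 5.5% of all genes were called higher and lower. The median log2 fold change was 0.17 over the 31 genes, 25 of which were above 0, and -0.0077 over all genes, 47.9% of which were above 0. The 10 were the factors Atf4, Atf5, Atf3 and Ddit3, the feedback and growth genes Trib3, Chac1, Ppp1r15a and Ddit4, and the synthesis genes Shmt2 and Gpt2. These comparisons share the treated libraries with those above and are no independent evidence of them. Of the 10, Ddit4, Shmt2 and Gpt2 were also called higher in HKO cells under vehicle, as given below.

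Atf3 averaged 63.0 ± 6.60 TPM in HKO and 44.4 ± 1.75 TPM in FLOX cells with palmitic acid, a ratio of 1.42 and a log2 fold change of 0.49 ± 0.077 (limma adjusted p = 0.000537). Ddit3 averaged 38.5 ± 8.33 TPM in HKO and 26.8 ± 0.625 TPM in FLOX cells and was higher by 0.48 ± 0.12 (0.0161 by limma). The HKO samples were more spread than the FLOX samples, and the Ddit3 call was lost without HKO palmitic acid replicate 1 (adjusted p = 0.0526) and in a fit of these groups alone (0.0585). Ppp1r15a averaged 76.4 ± 9.14 TPM in HKO and 55.6 ± 3.48 TPM in FLOX cells and was higher by 0.45 ± 0.087 (limma adjusted p = 0.00348). Trib3 averaged 47.9 ± 4.42 TPM in HKO and 36.2 ± 1.99 TPM in FLOX cells, with all HKO samples above all FLOX samples and a log2 fold change of 0.39 ± 0.060 (limma adjusted p = 0.000464). Chac1 averaged 37.3 ± 2.65 TPM in HKO and 30.7 ± 0.655 TPM in FLOX cells and was higher by 0.27 ± 0.049 (limma adjusted p = 0.00154). The groups did not overlap for any of the 10 genes. These were picked by their calls on the same libraries, so the lack of overlap adds no support. The share of all genes without overlap was not computed.

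Atf4 was 1.15-fold higher in HKO cells, a log2 fold change of 0.20 ± 0.031 (limma adjusted p = 0.000553), and Atf5 was higher by 0.38 ± 0.090 (0.0136). Ddit4 was higher by 0.43 ± 0.10 (limma adjusted p = 0.0087), Shmt2 by 0.17 ± 0.050 (0.038) and Gpt2 by 0.22 ± 0.064 (0.0381). In a fit of these groups alone Ddit4 missed the threshold (0.0536). Shmt2 was lost without FLOX palmitic acid replicate 2, 3 or 4, HKO palmitic acid replicate 1 or 2 or FLOX vehicle replicate 2 or 4 (0.0501 to 0.124). Gpt2 was lost without FLOX palmitic acid replicate 1, 3 or 4, HKO palmitic acid replicate 1, 2 or 3 or HKO vehicle replicate 3 (0.0501 to 0.122). Nupr1 missed the threshold at 0.40 ± 0.12 (0.0514), and passed it without HKO palmitic acid replicate 2 (0.0139). The serine enzymes Psat1, Phgdh and Psph stood at 0.0053 ± 0.037, -0.083 ± 0.068 and 0.042 ± 0.087 (limma adjusted p = 0.962, 0.54 and 0.851), and Slc7a11 at -0.00031 ± 0.15, with a 95% interval of -0.33 to 0.33.

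Other cells' markers also differed between these groups. The macrophage marker sum was 80.9 to 107 TPM in HKO and 55.5 to 68.1 TPM in FLOX cells with palmitic acid, and 1 of 7 genes, Cd68, could be tested and was higher, while the defining markers Adgre1 and Clec4f were near 0 as given above. The cholangiocyte marker sum was 338 to 386 TPM in HKO and 196 to 242 TPM in FLOX cells, with 1 of 4 tested genes, Spp1, higher. Of the 10 hepatocyte markers 6 were higher and 1 was lower, against 4.24% and 5.5% of all genes. The part of these markers in the higher stress genes of HKO cells was not tested.

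Under vehicle fewer members passed between the genotypes. Of the 31 genes, 5 were higher in HKO cells and 2 lower, against 4.11% and 7.56% of all genes, with a median log2 fold change of 0.017 over the members and -0.023 over all genes. No transcription factor passed. Gpt2 averaged 181 ± 10.4 TPM in HKO and 143 ± 13.5 TPM in FLOX cells with vehicle, and was higher by 0.34 ± 0.064 (limma adjusted p = 0.00257). Shmt2 averaged 198 ± 9.78 TPM in HKO and 171 ± 3.88 TPM in FLOX cells and was higher by 0.21 ± 0.050 (0.0109). Ddit4 was higher by 0.37 ± 0.10 (limma adjusted p = 0.0192), a call lost without HKO vehicle replicate 4 (0.0597) or FLOX vehicle replicate 3 (0.0593). Slc3a2 averaged 299.6 ± 3.09 TPM in HKO and 343 ± 6.20 TPM in FLOX cells and was lower by a log2 fold change of -0.20 ± 0.029 (limma adjusted p = 0.000267), and Phgdh was lower, at -0.24 ± 0.068 (0.0305). The Phgdh call was lost without HKO vehicle replicate 1, 3 or 4 or FLOX vehicle replicate 1 or 4 (0.0578 to 0.0893) and with median-ratio scaling (0.11).

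The higher calls of Aldh1l2 (0.33 ± 0.10, limma adjusted p = 0.0483) and Cth (0.10 ± 0.029, 0.0407) were near the threshold. The HKO and FLOX groups of Aldh1l2 overlapped, and its call was lost without any 1 of 12 libraries: HKO palmitic acid replicates 1 to 4, HKO vehicle replicates 2 to 4, FLOX palmitic acid replicates 2 and 4 and FLOX vehicle replicates 2 to 4 (0.0517 to 0.149). That of Cth was lost without any 1 of 11: HKO palmitic acid replicates 1 to 3, HKO vehicle replicates 1 to 3, FLOX palmitic acid replicate 3 and FLOX vehicle replicates 1 to 4 (0.051 to 0.134). Markers differed under vehicle too: the macrophage sum was 60.4 to 69.6 TPM in HKO and 48.4 to 55.1 TPM in FLOX cells, with Cd68 higher by 0.29 ± 0.084 (0.0336), and the cholangiocyte sum was 298 to 324 TPM in HKO and 180 to 191 TPM in FLOX cells. Spp1, Krt19 and the endothelial marker Stab2 were higher, by 0.87 ± 0.068, 0.43 ± 0.12 and 0.56 ± 0.12, and Krt7 was lower, at -0.61 ± 0.10 (limma adjusted p = 3.63e-07, 0.0319, 0.00853 and 0.00112). Of the 10 hepatocyte markers 5 were higher and 1 was lower, against 4.11% and 7.56% of all genes. The part of all these markers in the genotype differences was not tested. Ddit3, Atf4 and Trib3, which were higher in HKO cells under palmitic acid, stood at 0.085 ± 0.12, -0.033 ± 0.031 and -0.018 ± 0.060 under vehicle (limma adjusted p = 0.735, 0.577 and 0.907).

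**Figure D4:**
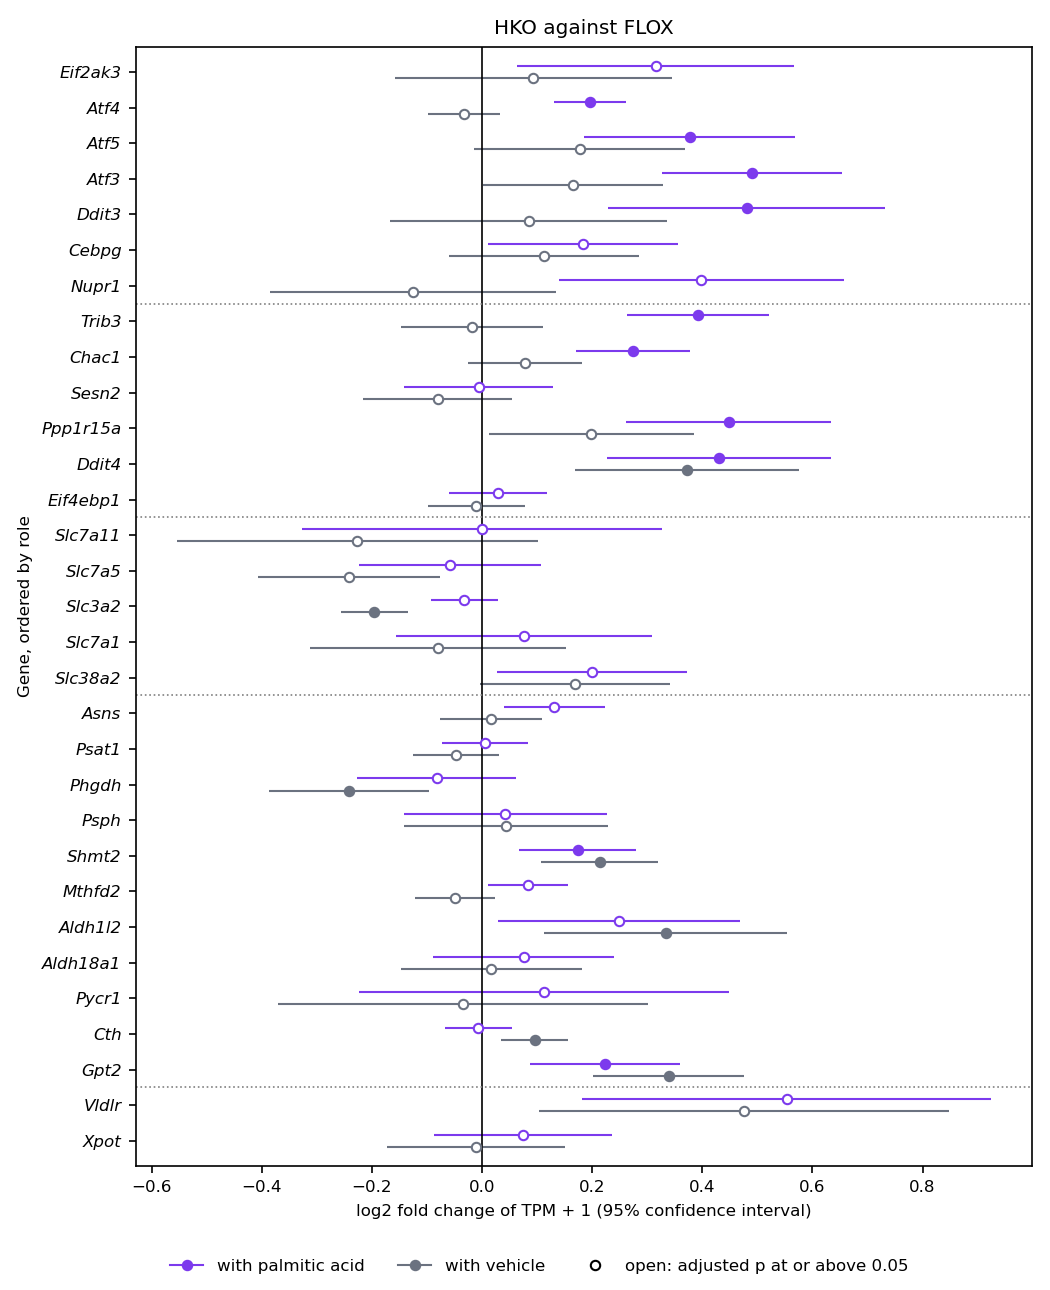
Points are log2 fold changes of TPM + 1 in HKO over FLOX cells for the 31 tested genes, palmitic acid above vehicle in each row, with 95% confidence intervals, filled where the limma adjusted p is below 0.05. With palmitic acid the filled points are Atf4, Atf5, Atf3, Ddit3, Trib3, Chac1, Ppp1r15a, Ddit4, Shmt2 and Gpt2, all right of 0.

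Whether the response to palmitic acid itself differed was tested as the interaction, the log2 response of HKO cells minus that of FLOX cells. Of the 31 genes 1, Atf4, was higher and none lower at the threshold, where 0.152% and 0.0422% of all genes were. By limma 26 of the 31 interaction estimates were above 0, with a median of 0.13, beside 54.3% and 0.015 over all genes. Without both FLOX libraries numbered 1, Slc7a11, Slc7a1, Slc38a2, Vldlr, Ddit4 and Xpot turned below 0, and none turned above it. These genes then stood at -0.058, -0.027, -0.090, -0.18, -0.027 and -0.034, beside a median of -0.026 over all genes. The Atf4 difference was 0.23 ± 0.043 (limma adjusted p = 0.0485), from the responses of 0.15 in HKO and -0.074 in FLOX cells given above. It was near the threshold and was lost when any of 14 libraries was left out, that is all but FLOX palmitic acid replicate 2 and HKO vehicle replicate 4 (0.0525 to 0.135), and with median-ratio scaling (0.313). Trib3 had the next lowest adjusted p among the members, with a difference of 0.41 ± 0.086 and a 95% interval of 0.23 to 0.59 (0.0765 by limma). For Ddit3, Atf3, Ppp1r15a and Nupr1 the differences were 0.40 ± 0.17, 0.33 ± 0.11, 0.25 ± 0.12 and 0.52 ± 0.17 (limma adjusted p = 0.584, 0.412, 0.689 and 0.403), so that a larger response in HKO cells was not shown for them. The serine enzymes Psat1 and Psph had differences of 0.053 ± 0.052 and -0.0016 ± 0.12, with 95% intervals of -0.059 to 0.16 and -0.26 to 0.26.

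Further genes of the pathway were read from lists of known roles. The ATF6 and IRE1 arms of the unfolded protein response, the branches that run beside PERK, are known to control 15 genes read here. Of these 15, 11 were higher with palmitic acid in HKO and 11 in FLOX cells and none was lower. Of all genes, 29.4% were higher in HKO and 23% in FLOX cells. The median log2 fold change of the 15 was 1.08 in HKO and 0.74 in FLOX cells. Under palmitic acid 7 of the 15 were higher in HKO than in FLOX cells, against 4.24% of all genes. In the interaction 4 were higher, against 0.152% of all genes. Creld2, a secreted chaperone-like protein of the endoplasmic reticulum, averaged 67.5 ± 4.17 TPM with palmitic acid and 18.0 ± 1.27 TPM with vehicle in HKO cells, and 48.4 ± 4.12 TPM with palmitic acid and 20.6 ± 1.20 TPM with vehicle in FLOX cells. It rose by 1.85 ± 0.068 in HKO and 1.19 ± 0.068 in FLOX cells, a difference of 0.66 ± 0.10 in the interaction (limma adjusted p = 0.0115). The chaperones Hsp90b1, Hspa5 and Pdia4 had differences of 0.43 ± 0.066, 0.36 ± 0.056 and 0.36 ± 0.068 (0.015, 0.015 and 0.0497 by limma), so that Pdia4 was just past the threshold. The Hspa5 call was lost with median-ratio scaling (0.103), and those of Hspa5 and Hsp90b1 without a mean-variance trend (0.0831 and 0.0801). In a fit with the replicate number as a block, the interaction calls of Creld2, Hsp90b1 and Hspa5 were lost (limma adjusted p = 0.111, 0.197 and 0.299). That fit called 3 of all genes higher in the interaction. Sdf2l1 and Dnajb9, cochaperones of the same organelle, were higher in HKO than in FLOX cells under palmitic acid by 0.54 ± 0.10 and 0.46 ± 0.073 (limma adjusted p = 0.00336 and 0.000616).

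Other known targets of ATF4 or CHOP, 29 of 32 of which were tested, went both ways: in HKO cells 10 were higher and 5 lower with palmitic acid, and 9 higher and 5 lower in FLOX cells. These shares are near those of all genes (29.4% and 13.1% in HKO, 23% and 11.5% in FLOX cells). Gadd45a, a growth arrest gene, rose by 0.92 ± 0.078 in HKO and 0.42 ± 0.078 in FLOX cells (limma adjusted p = 1.8e-07 and 0.000643). Txnip, an inhibitor of thioredoxin, rose by 0.80 ± 0.10 in HKO and 0.84 ± 0.10 in FLOX cells (1.44e-05 and 1.28e-05). Fgf21, a hormone of the liver that ATF4 is known to induce, averaged 10.6 ± 2.03 TPM with palmitic acid and 14.5 ± 0.661 TPM with vehicle in HKO cells, and 13.2 ± 1.25 TPM with palmitic acid and 22.4 ± 1.85 TPM with vehicle in FLOX cells. It was lower in both, by log2 fold changes of -0.44 ± 0.10 in HKO and -0.72 ± 0.10 in FLOX cells (limma adjusted p = 0.00331 and 7.3e-05), while Jdp2, a leucine zipper repressor, was lower in FLOX cells, at -0.70 ± 0.12 (0.00024). Between genotypes under palmitic acid 7 of the 29 were higher in HKO cells and none lower, against 4.24% and 5.5% of all genes. The 7 were led by Ndrg1, a stress and hypoxia gene (1.17 ± 0.13, 1.22e-05), the growth factor Vegfa (0.72 ± 0.11, 0.000333) and Cebpb (0.68 ± 0.17, 0.0183, all by limma). The Cebpb call was lost without HKO palmitic acid replicate 1 (0.0616) or FLOX palmitic acid replicate 3 or 4 (0.052 and 0.0503). Under vehicle 5 of the 29 were higher and 2 lower, against 4.11% and 7.56% of all genes. Ndrg1 and Vegfa were again higher, by 0.90 ± 0.13 and 0.65 ± 0.11 (limma adjusted p = 0.00018 and 0.00084). Slc38a1, a glutamine transporter, was higher there by 0.60 ± 0.17 (0.0286), a call lost without HKO vehicle replicate 2 or 3 or FLOX vehicle replicate 2 or 4 (0.0637 to 0.0927).

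Cytosolic aminoacyl-tRNA synthetases, which charge tRNA and are ATF4 targets in part, numbered 20, of which palmitic acid went with 5 lower and 4 higher in HKO cells, and with 9 lower and 2 higher in FLOX cells. The higher calls were fewer than the 29.4% and 23% of all genes, and the lower calls more than the 13.1% and 11.5%. Gars, for glycine, changed by -0.45 ± 0.046 in HKO and -0.54 ± 0.046 in FLOX cells (limma adjusted p = 1.27e-06 and 2.87e-07), whereas Qars, for glutamine, was higher by 0.40 ± 0.11 in HKO and 0.49 ± 0.11 in FLOX cells (0.00643 and 0.00216). Iars, for isoleucine, and Yars, for tyrosine, were lower in both genotypes, at -0.29 ± 0.065 and -0.37 ± 0.074 in HKO and -0.26 ± 0.065 and -0.25 ± 0.074 in FLOX cells (limma adjusted p = 0.00212, 0.000818, 0.00621 and 0.0162). Between genotypes 1 synthetase was higher and 1 lower in HKO cells under palmitic acid, and 4 were lower under vehicle. Of all genes, 4.24% were higher and 5.5% lower under palmitic acid, and 7.56% were lower under vehicle. Gars was higher under palmitic acid by 0.18 ± 0.046 (0.0193), a call lost without HKO palmitic acid replicate 1 or 2 or FLOX palmitic acid replicate 2, 3 or 4 (0.0551 to 0.0659). Farsb, for phenylalanine, was lower at -0.19 ± 0.036 under palmitic acid and -0.19 ± 0.036 under vehicle (limma adjusted p = 0.00312 and 0.00223), calls lost with median-ratio scaling (0.0522 and 0.0724). Dars, for aspartate, and Kars, for lysine, were lower under vehicle, at -0.18 ± 0.044 and -0.16 ± 0.041 (0.0125 and 0.0211). The Kars call was lost with that scaling (0.0504) and without HKO vehicle replicate 1 or 3 or FLOX vehicle replicate 1 (0.0557 to 0.0631), and the Dars call with quantile normalization (0.0639).

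Of 14 other genes of folate and of serine and glycine, 6 were lower and 1 higher in palmitic acid-treated HKO cells, and 5 were lower in treated FLOX cells. Of all genes, 29.4% were higher and 13.1% lower in HKO cells, and 23% higher and 11.5% lower in FLOX cells. Shmt1, the cytosolic partner of Shmt2, changed by -0.80 ± 0.17 in HKO and -0.86 ± 0.17 in FLOX cells (0.00146 and 0.00117), and Amt and Aldh1l1, of glycine cleavage and of formyl folate, by -0.53 ± 0.064 and -0.54 ± 0.069 in HKO and -0.42 ± 0.064 and -0.36 ± 0.069 in FLOX cells (limma adjusted p = 7.1e-06, 1.31e-05, 0.000115 and 0.000767). Gldc, of glycine cleavage, was lower in HKO than in FLOX cells under palmitic acid, at -0.30 ± 0.072 (0.0153), a call lost without FLOX palmitic acid replicate 2 (0.0503). Under vehicle Gart, of purine synthesis, and Mthfd1, the cytosolic folate enzyme, were lower in HKO cells, at -0.32 ± 0.075 and -0.21 ± 0.060, and Aldh1l1 was higher by 0.26 ± 0.069 (limma adjusted p = 0.0118, 0.035 and 0.0214). The Mthfd1 call was lost with median-ratio scaling (0.109) and without HKO vehicle replicate 2, 3 or 4 or FLOX vehicle replicate 1, 3 or 4 (0.0647 to 0.109). That of Aldh1l1 was lost without HKO vehicle replicate 2 or 4 or FLOX vehicle replicate 2, 3 or 4 (0.0537 to 0.0668).

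The eIF2 kinases, the subunits of eIF2 and of its exchange factor eIF2B and related genes were higher for 6 of 15 with palmitic acid in HKO and for 5 of 15 in FLOX cells, where 1, Eif2s2, was lower. These shares of higher calls stand beside 29.4% and 23% of all genes. Impact, which restrains the amino acid sensing kinase GCN2, was higher by 0.56 ± 0.16 in HKO and 0.62 ± 0.16 in FLOX cells (limma adjusted p = 0.0119 and 0.00829), and Eif2ak4, which encodes GCN2, by 0.37 ± 0.10 in FLOX cells (0.0127), a call lost in a fit of the FLOX groups alone (0.0515). The eIF2B subunit Eif2b3 was higher by 0.18 ± 0.044 in HKO and 0.23 ± 0.044 in FLOX cells (0.00306 and 0.000846), the FLOX call being lost with median-ratio scaling (0.115). Under palmitic acid Eif2b3 was lower in HKO than in FLOX cells, at -0.18 ± 0.044 (0.0171), a call lost with that scaling (0.102) and without HKO palmitic acid replicate 1 or 2 (0.0619 and 0.0604). Another subunit, Eif2b4, was higher in HKO cells by 0.28 ± 0.11 (limma adjusted p = 0.0454). That call was lost with the scaling (0.292) and without HKO palmitic acid replicate 1 or 3, HKO vehicle replicate 1, 3 or 4, FLOX palmitic acid replicate 2 or 4 or FLOX vehicle replicate 1, 2 or 4 (0.0508 to 0.143). Eif2s1, which encodes eIF2α itself, averaged 54.1 ± 1.35 TPM with palmitic acid and 44.7 ± 2.40 TPM with vehicle in HKO cells, and 57.6 ± 1.04 TPM with palmitic acid and 49.9 ± 0.591 TPM with vehicle in FLOX cells. It was higher with palmitic acid by 0.27 ± 0.039 in HKO and 0.20 ± 0.039 in FLOX cells (limma adjusted p = 4.2e-05 and 0.000825), and lower in HKO than in FLOX cells under vehicle, at -0.16 ± 0.039 (0.0154). The last call was lost with median-ratio scaling (0.0888) and without HKO vehicle replicate 3 or 4 (0.053 and 0.0509). Eif2s2 was lower there too, at -0.10 ± 0.028 (0.0291), a call lost with median-ratio scaling (0.391) and without HKO vehicle replicate 2, 3 or 4 or FLOX vehicle replicate 2, 3 or 4 (0.0614 to 0.0891).

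**Figure D5:**
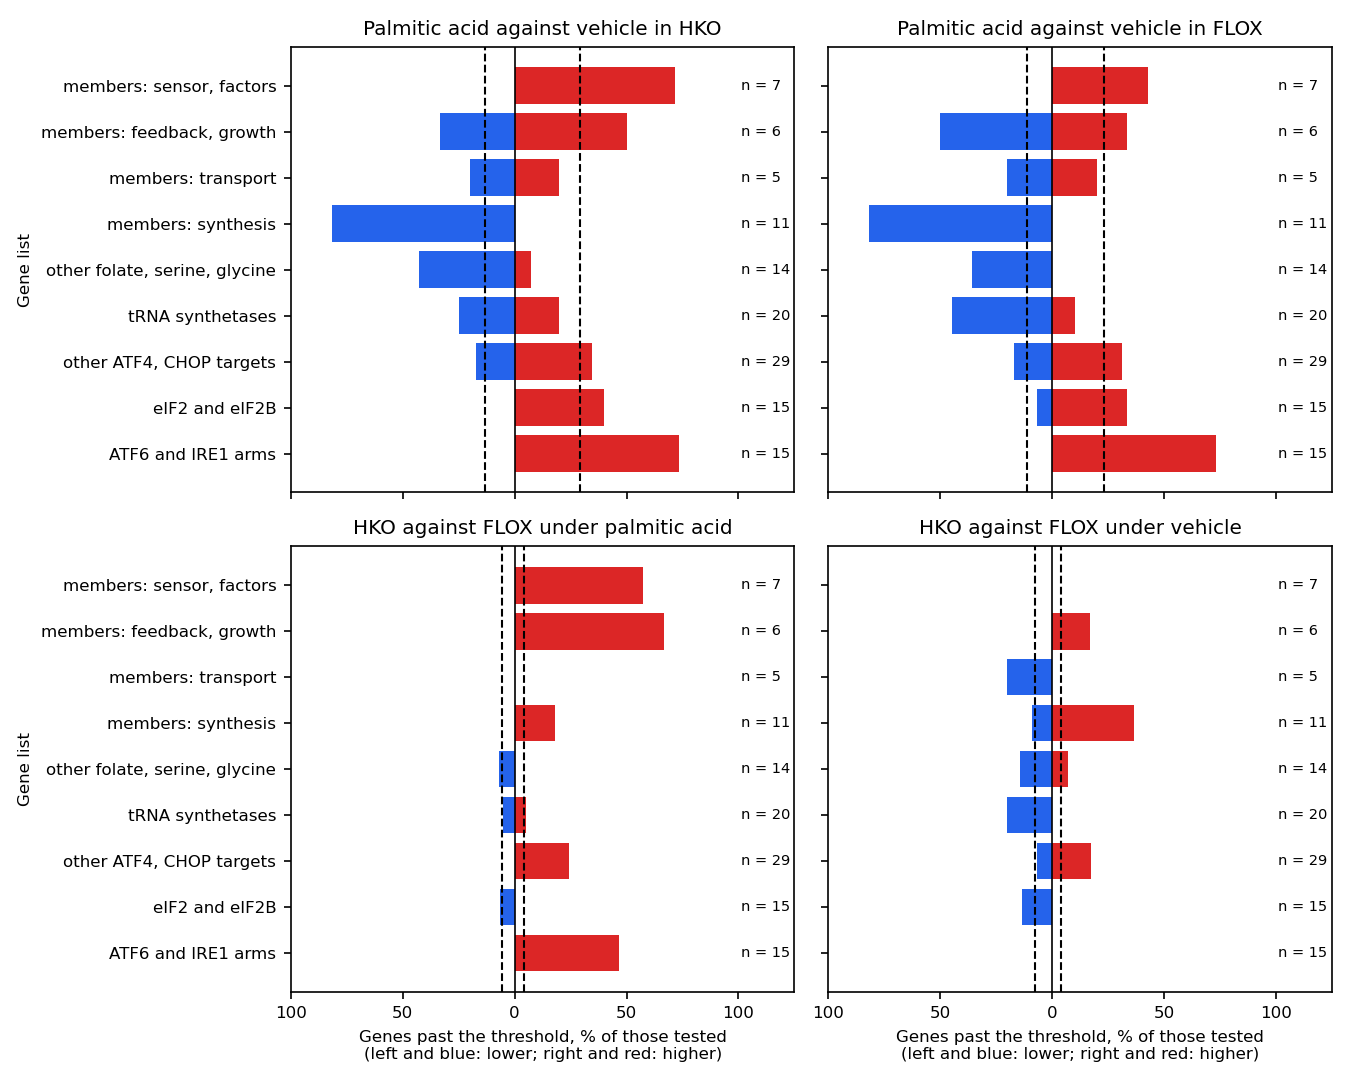
Bars give the percent of tested genes in each list that were called higher (right, red) or lower (left, blue) in 4 comparisons, with n tested genes beside each, and the dashed lines give the same percents over all 11858 genes tested. Synthesis members lie to the left and the ATF6 and IRE1 arms to the right in both palmitic acid comparisons, and the factors and feedback genes lie to the right between genotypes under palmitic acid.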

How the data were processed

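RNA of 16 samples of mouse primary hepatocytes was sequenced, 4 in each of 4 groups, from stranded total RNA libraries per the labels' protocols. The authors deposited a table of TPM per gene. RSEM 1.3.3 and a human genome build are listed in the submitters' processing notes, while the rows carry mouse Ensembl identifiers, so no coordinates of that build are used here. Not given in the sources used here are the aligner, annotation and strand setting of the counting. TPM totals per sample were 975816 to 984870 and hold no depth, so no counting intervals are given. Symbols were matched to 52083 identifiers by the GENCODE vM21 and gene name tables.

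Genes with at least 1 TPM in at least 4 samples (11858) were tested with limma 3.58.1 in R 4.3.3 on log2(TPM + 1), with a mean per group over all 16 samples, a mean-variance trend, two-sided tests and Benjamini-Hochberg adjustment over all genes tested. The 5 comparisons were palmitic acid over vehicle in each genotype, HKO over FLOX under each treatment, and the interaction. The script was tested on simulated data. All members are named, with Smpd3 and, from each pathway list and comparison, up to 3 called genes with the largest change. The members and lists were chosen with earlier results of these data known. Alternatives were another pseudocount, filters, scalings, no trend, array weights, a replicate block, a fit of the compared groups alone, and leaving out libraries. Promoter sequences are from RefSeq (GRCm38.p6).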

Additional observations from a re-analysis of the deposited data

Results flagged for a closer look

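In 6 of 124 groups of 4 values of the tested members, 1 sample lay far from the other 3 (by Dixon's gap test at 95%), where chance gives about 1 in 20. Eif2ak3 had 9.95 TPM in HKO palmitic acid replicate 2, above the 7.91 to 8.15 TPM of the other replicates. Slc3a2 had 229.91 TPM in HKO palmitic acid replicate 3, below 246.93 to 248.14 TPM, and Psat1 had 74.4 TPM in HKO palmitic acid replicate 4, below 78.1 to 78.73 TPM. Asns had 69.49 TPM in FLOX palmitic acid replicate 1, above 63.21 to 63.97 TPM. In FLOX vehicle replicate 1, Aldh1l2 had 2.48 TPM, above 1.92 to 2 TPM, and Slc38a2 had 33.2 TPM, above 28.07 to 28.91 TPM. The last 3 values come from the FLOX libraries numbered 1 that stood apart by transcript length.

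The log2 response to palmitic acid was larger in HKO than in FLOX cells past the limma threshold for Atf4 (difference 0.229), Creld2 (0.66), Hsp90b1 (0.426) and Hspa5 (0.361), and each of these calls was lost under at least 1 alternative. Atf4 was lost without any 1 of 14 libraries. Pdia4 was also past the threshold (0.356), and its interaction was not among the results recomputed under the alternatives.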

How the results depend on the processing

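Of 155 comparisons of a member, 59 passed the threshold. Of these, 42 passed under all alternatives run (26, or 25 for the interaction), 17 were lost under at least 1, and 20 others passed under at least 1; none reversed. The interaction count of 1 member higher became 0 with a pseudocount of 0.1, median-ratio scaling, no trend, the replicate block or both FLOX samples numbered 1 left out, and was 0 to 1 without single libraries. With median-ratio scaling 5 rather than 9 members passed as higher in HKO cells given palmitic acid. Under vehicle, 8 members were higher in HKO cells with array weights and 3 with the replicate block or the compared groups alone, against 5 (2 to 5 without single libraries). There 1 rather than 2 was lower with no filter, median-ratio scaling or no trend (1 to 3 without single libraries). The cause was not tested. Without single libraries, 8 to 11 members were higher and 11 to 13 lower in HKO cells given palmitic acid, 5 to 6 and 13 to 15 in FLOX cells, and 7 to 11 higher in HKO than in FLOX cells under palmitic acid. Over all genes, median-ratio scaling gave 2104 higher and 2368 lower with palmitic acid in HKO cells, against 3491 and 1549, and 1651 against 2726 higher in FLOX cells, where array weights gave 4050. Under vehicle 501 rather than 897 genes were lower in HKO cells with median-ratio scaling, and 792 rather than 487 were higher with array weights. The compared groups alone gave 321 higher and 355 lower under palmitic acid, against 503 and 652. The interaction's 18 higher and 5 lower became 4 and 1 with no trend and 5 and 4 with median-ratio scaling. Samples with the same number did not deviate together (r of -0.15 to 0.112 between groups). These values cannot tell whether equal numbers share an animal, because differences between libraries enter them too. The main fit did not pair samples. With the replicate block 3 genes passed the interaction, and Atf4, Creld2, Hsp90b1 and Hspa5 did not (limma adjusted p = 0.316, 0.111, 0.197 and 0.299). Depth is unknown, so its limit cannot be given.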
